A study of Mus musculus with 9 samples.

Results

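Transcripts of 10 hypoxia-inducible genes were followed through 9 RNA sequencing libraries of mouse cardiosphere-derived cells. The genes are Bnip3, Egln1, Egln3, Ndrg1, Car9, Ankrd37, P4ha1, P4ha2, Adm and Kdm3a. They were taken by name from a table of 54532 genes, and each name matched 1 gene identifier. The rule uses their names and no measured value, but the genes were chosen with earlier results of these data known. The cells came from C57BL/6 mice and fall into 3 groups of 3 libraries. pECDCs are primary cells grown out of ventricular epicardium through cardiospheres, labelled P0, for which the culture methods give passage 3. iECDCs are 1 line of such cells at passage 30, immortalized by lentiviral hTERT (human telomerase reverse transcriptase) and selected with puromycin. The third group received SB431542, a small molecule that blocks type I receptor kinases of the TGF-β family. The labels describe it as iECDCs at passage 30 treated for 3 days, whereas the methods name an epithelial clone derived from pECDCs, so that comparisons with this group may set the inhibitor, or the inhibitor and the clone, against the other cells. Neither source describes a culture at low oxygen. The methods speak of 2 biological replicates per condition, while 3 libraries per group were used here, and neither source ties a library to a culture or an animal. The p-values therefore measure the spread between these libraries, which may be technical.

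Cells sense oxygen through enzymes that hydroxylate the alpha subunits of the hypoxia-inducible factors (HIF). Hydroxylated alpha subunits are bound by the VHL ubiquitin ligase and degraded when oxygen is plentiful. When oxygen is scarce they persist, pair with ARNT and bind hypoxia response elements, whose core is ACGTG or GCGTG, beside their target genes. The targets shift cells toward glycolysis, restrain mitochondria, build matrix and call in vessels, and some of them, such as Egln3, feed back on HIF itself. In the heart this program is known from ischaemia. The level of HIF protein was not measured here, and a transcript level does not report it.

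The upstream sequences of 4 genes that differed in at least 1 comparison below are shown first, with the elements HIF is known to bind. They are not the 4 clearest differences, since Ndrg1 differed most and had no sequence at hand. RefSeq sequences on GRCm38.p6, from 250 bases before to 50 bases after a transcript's start, were at hand for 9 of the 10 genes, all except Ndrg1. The 250 bases before the start are printed 5′ to 3′ on the strand of the gene. Capitals mark ACGTG or GCGTG on that strand and CACGT or CACGC, which are the same motifs on the other strand. The Bnip3 sequence is the minus strand of chr7:138909507-138909756, that of Egln3 the minus strand of chr12:54203875-54204124, that of Adm the plus strand of chr7:110627407-110627656 and that of P4ha1 the plus strand of chr10:59323046-59323295.
Bnip3: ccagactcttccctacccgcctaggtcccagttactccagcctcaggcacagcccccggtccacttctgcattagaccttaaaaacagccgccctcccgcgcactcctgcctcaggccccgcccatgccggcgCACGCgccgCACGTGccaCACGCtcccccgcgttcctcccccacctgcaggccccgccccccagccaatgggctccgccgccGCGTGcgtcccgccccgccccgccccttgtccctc
Egln3: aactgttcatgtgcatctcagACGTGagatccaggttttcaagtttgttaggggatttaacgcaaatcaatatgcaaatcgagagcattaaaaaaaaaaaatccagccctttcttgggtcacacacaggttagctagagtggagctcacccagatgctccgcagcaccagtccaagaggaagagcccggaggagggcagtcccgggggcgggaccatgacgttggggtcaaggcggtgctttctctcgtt
Adm: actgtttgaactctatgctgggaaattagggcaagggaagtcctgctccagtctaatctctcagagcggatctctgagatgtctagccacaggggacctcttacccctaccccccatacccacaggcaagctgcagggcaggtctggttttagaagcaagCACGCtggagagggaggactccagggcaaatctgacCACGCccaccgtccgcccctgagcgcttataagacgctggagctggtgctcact
P4ha1: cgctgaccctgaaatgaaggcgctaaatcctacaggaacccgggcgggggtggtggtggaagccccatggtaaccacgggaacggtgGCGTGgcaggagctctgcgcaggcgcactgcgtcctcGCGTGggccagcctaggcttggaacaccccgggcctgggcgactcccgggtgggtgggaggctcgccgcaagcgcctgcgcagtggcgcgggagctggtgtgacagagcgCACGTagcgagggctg
In Bnip3, 5 matches lay in the window, 4 of them between 117 and 99 bases before the start, where ACGTG was read on both strands of 1 palindromic CACGTG. Egln3 held 1 ACGTG, Adm held 2 GCGTG and no ACGTG, and P4ha1 held 2 GCGTG and 1 ACGTG, the last starting 16 bases before the start site. Of the other members, P4ha2 and Ankrd37 had 4 matches each, Egln1 had 2 and Car9 had 1, and of the 3 windows of Kdm3a 1 held a single GCGTG and the others none. The windows of P4ha2 (chr11:54100674-54100973) and Ankrd37 (chr8:45999801-46000100) lie at a transcript start inside the gene as annotated below. They are not upstream of its outer end, and neither are the Kdm3a windows without a match. Over the 300 bases of each window, 9 of 11 windows of members (81.8%) held at least 1 match, against 43.8% of all 32851 windows in the table. For 57 windows of 40 other hypoxia target genes the share was 77.2%. The letters ACGTG alone were in 63.6% of the members' windows and 19.6% of all windows, and GCGTG in 63.6% and 32.4%. GC content ranged from 49% to 86% over the members' windows, and that of all windows was not computed. Both lists were made of genes known as hypoxia targets, so these shares are a description and no test of the motif. A match describes the letters in the window and not binding. The direction of change differed between genes that share the motif, as the values below show.

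Total counts per library were between 16568306 and 23951392. One library of the iECDC group and 1 of the treated group stood apart from the others of their group. Between replicates the chi-square of gene counts per degree of freedom was 2.70 to 4.23 among pECDC libraries. It was 4.61 between iECDC replicates 1 and 2 and 24.9 to 30.8 for pairs with replicate 3, and 3.79 between SB431542 replicates 1 and 3 and 70.3 to 71.5 for pairs with replicate 2. Of the labelled surface markers, Eng and Thy1 were abundant in all 9 libraries, at 62.4 to 90.2 FPKM and 111 to 148 FPKM. FPKM, the number of reads scaled to the length of the gene and to the depth of the library, is the scale of all levels given here. Ly6a, which encodes Sca-1, was at 3.93 to 7.11 FPKM in pECDCs and iECDCs and at 16.2 to 37.0 FPKM after SB431542. The 4 markers that these cells should lack, for c-kit, Kdr, CD31 and CD45, summed to at most 0.0841 FPKM in any library. Of the 5 epithelial markers, Krt8, Krt18, Cdh1 and Epcam had at most 4 counts in every library, the treated ones included. The other, Krt19, had 18.2 to 19.5 FPKM in pECDCs, 28.8 to 31.2 FPKM in iECDCs, where it was higher (log2 fold change 0.64 ± 0.0676, adjusted p = 0.000374 by edgeR), and 22.8 to 37.9 FPKM after SB431542. The 4 epicardial markers summed to 19.4 to 25.7 FPKM in pECDCs and iECDCs and to 25.7 to 44.9 FPKM after SB431542, of which Tbx18 made up 22.9 to 41.8 FPKM. The other 3 were low and higher in treated cells than in iECDCs. Wt1 had 43, 14 and 39 counts after SB431542 and 0 to 2 counts in iECDCs (adjusted p = 0.00615 by edgeR), Upk3b rose 10.92-fold (adjusted p = 0.000912) and Tcf21 2.77-fold (adjusted p = 0.00565). Against pECDCs all 4 were higher. Whether the libraries that stand apart, or a change in cell makeup, had a part in the results below was not tested, and fewer cells of a type and less RNA per cell cannot be told apart in bulk RNA.

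The 10 genes spanned a wide range of levels. In pECDCs the mean FPKM ran from P4ha1 at 111 ± 1.30 (SD, n = 3) through Bnip3 at 43.1, Adm at 42.1, Egln1 at 29.0, P4ha2 at 14.3, Egln3 at 10.9, Kdm3a at 5.58, Ndrg1 at 2.01 and Ankrd37 at 1.11 to Car9 at 0.237 FPKM. Bnip3 and Adm, neighbours in that order, overlapped in their libraries. In iECDCs P4ha1 again stood first at 85.9 ± 10.2 FPKM. There Bnip3 (17.9 to 34.2 FPKM) overlapped with both Egln1 (29.5 to 30.7 FPKM) and Adm (18.4 to 26.9 FPKM), and P4ha2 with Egln3. After SB431542, P4ha1 (60.5 to 76.1 FPKM), Bnip3 (47.5 to 65.0 FPKM) and Adm (20.5 to 72.0 FPKM) overlapped. Ndrg1 was eighth in each group and Car9 last, with 7 to 17 counts per library, so that nothing but a large change in Car9 was detectable at this depth.

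**Figure D1:**
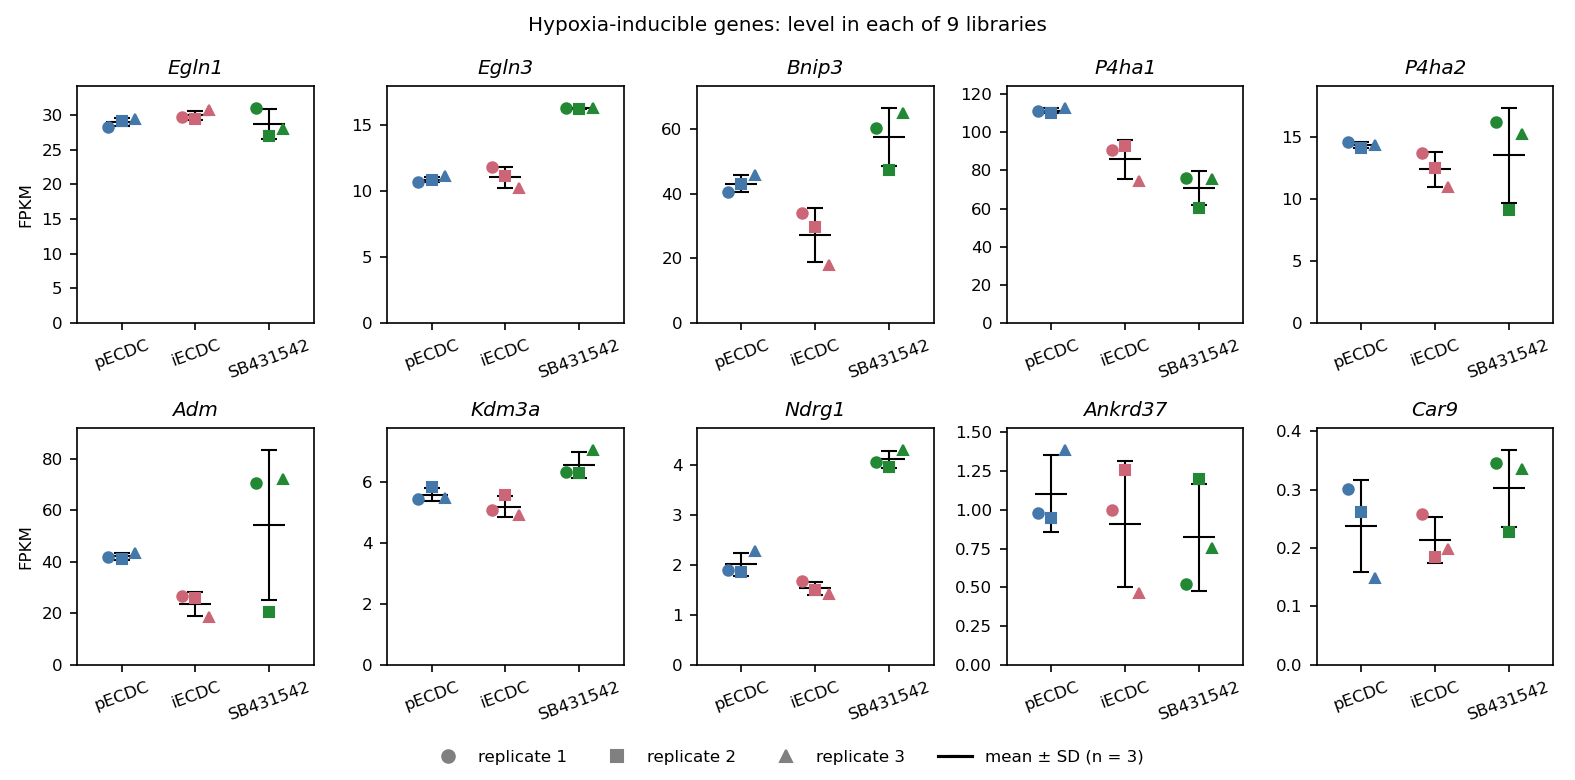
Level of the 10 genes in FPKM (linear axes from 0) in each library of pECDCs, iECDCs and SB431542-treated cells, with the mean and SD of 3 libraries in black. Egln1 lies between 27.0 and 31.1 FPKM throughout, Egln3 and Ndrg1 are higher in all 3 treated libraries, and Adm splits the treated libraries, with replicate 2 at 20.5 FPKM and the others at 70.4 and 72.0 FPKM.

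Immortalized cells were compared with primary cells to ask what hTERT transduction and long culture leave unchanged. In iECDCs 3 of the 10 genes fell, Adm, Bnip3 and P4ha1, and none rose, by edgeR's quasi-likelihood test with an adjusted p-value under 0.05. Of all 13752 genes tested, 9.21% were lower and 7.21% were higher by the same rule. The median log2 fold change of the 10 genes was −0.25, beside 0.00 for all genes, and 8 of the 10 had a negative value. At an unadjusted p-value under 0.05, 0 of the 10 were higher and 5 lower, against 2060 and 2273 of the 13752 genes, and DESeq2 called 0 higher and 3 lower. The count of 3 dropped to 1 without any 1 pECDC library and to 0 in the fit of all 9 libraries.

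SB431542-treated cells were compared with iECDCs to ask what blocking TGF-β signalling changes. In these 4 of the 10 genes were higher, Ndrg1, Bnip3, Egln3 and Kdm3a, and none was lower, where 16.0% of 13559 genes tested were higher and 14.0% lower. At an unadjusted p-value under 0.05, 5 were higher and 0 lower, against 3039 and 2850 of the 13559 genes, and DESeq2 called 3 higher and 0 lower. The median log2 fold change of the 10 genes was 0.42, beside 0.00 for all genes. Against pECDCs the same 4 genes were higher and P4ha1 was lower, where 17.9% of 14015 genes were higher and 17.0% lower, with a median of 0.30 for the members and 0.01 for all genes. The 3 comparisons share libraries pairwise and are not independent of each other. Without the libraries that stand apart, 4 genes fell in iECDCs, 6 rose and 2 fell in treated cells against iECDCs, and 6 rose and 2 fell against pECDCs. Leaving out a library at a time gave 1 to 5, 3 to 6 and 3 to 8 genes called in the 3 comparisons. Without the libraries that stand apart, the share of all genes called also rose, to 31.7%, 64.5% and 64.1%.

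**Figure D2:**
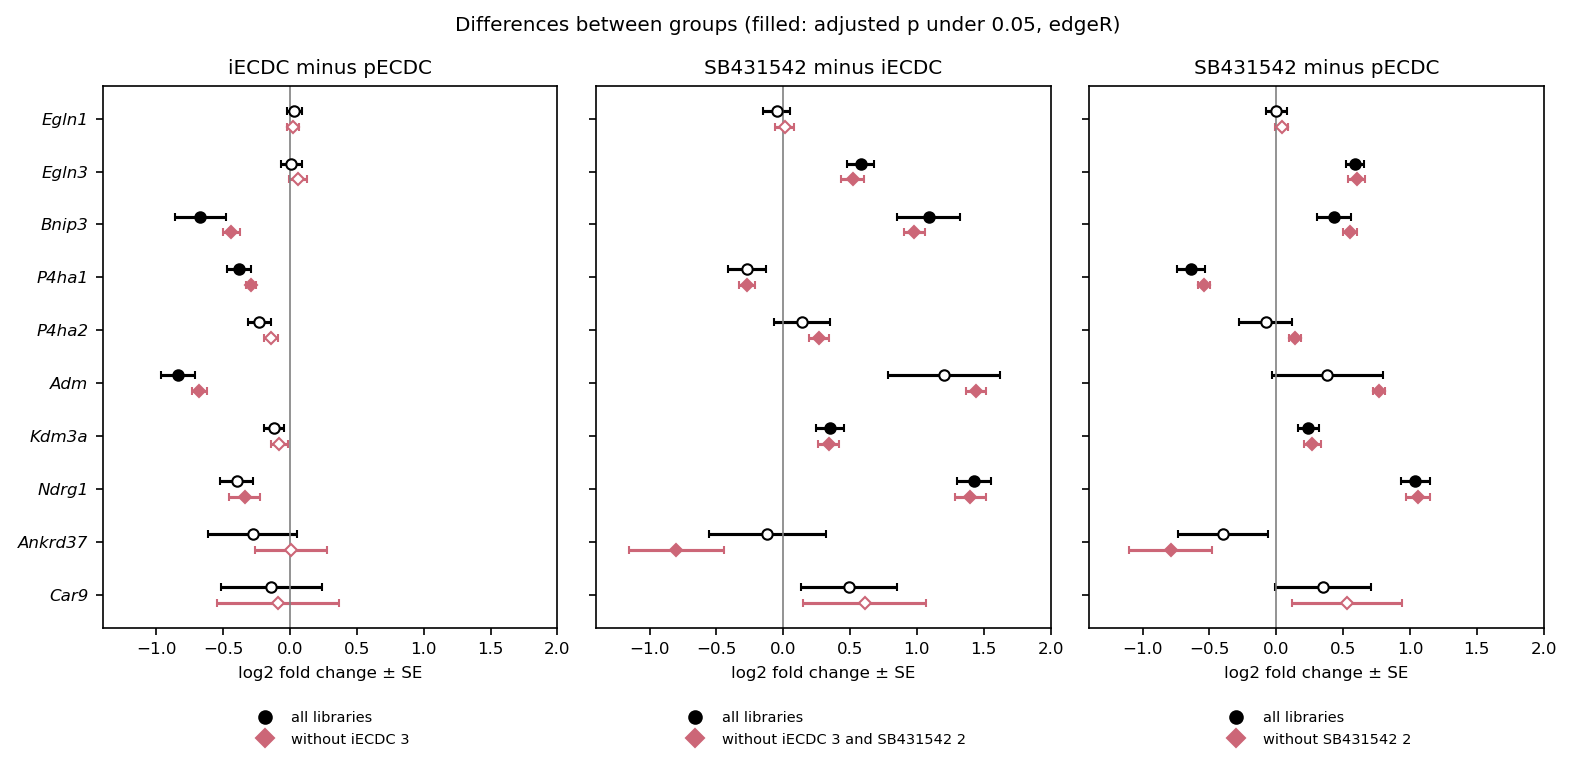
Log2 fold change with its standard error for each gene in 3 comparisons (edgeR), with all libraries (black circles) and without the libraries that stand apart (red diamonds). Filled symbols mark an adjusted p-value under 0.05. Ndrg1, Egln3 and Bnip3 are filled and positive in both comparisons of treated cells, while P4ha1 is negative in all 3 panels.

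Of the oxygen sensors, Egln3 rose in treated cells and Egln1 passed in no comparison. Both genes encode prolyl hydroxylases that mark HIF alpha subunits for degradation, Egln1 (PHD2) being the main one in most cells at normal oxygen and Egln3 (PHD3) a HIF target itself in many cell types. On GRCm38 Egln1 lies on the minus strand of chromosome 8 (124908587 to 124949324) and Egln3 on the minus strand of chromosome 12 (54178981 to 54203860). Egln1 measured 28.3, 29.2 and 29.4 FPKM in pECDCs, 29.7, 29.5 and 30.7 FPKM in iECDCs and 31.1, 27.0 and 28.0 FPKM after SB431542. Its groups overlapped, its range over the 9 libraries was 0.20 on the log2 scale of counts scaled to library size (CPM), the smallest of the 8 members with a mean of at least 1 FPKM, and no comparison passed the test (log2 fold changes between −0.05 and 0.03, adjusted p of 0.714 or more).

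Egln3 measured 10.7, 10.8 and 11.1 FPKM in pECDCs and 11.8, 11.1 and 10.2 FPKM in iECDCs. After SB431542 it was at 16.3, 16.2 and 16.3 FPKM, above all 6 other libraries and with replicate 2 at the level of the others. It was 1.49-fold higher than in iECDCs (log2 fold change 0.58 ± 0.103 SE, adjusted p = 0.00641) and 1.51-fold higher than in pECDCs (0.59 ± 0.0669, adjusted p = 0.00131), both by edgeR. Between iECDCs and pECDCs the log2 fold change was 0.01 ± 0.079. These 2 increases passed the threshold under all 15 and all 14 alternatives. In this and the following counts of alternatives, the limit of 1 on the absolute log2 fold change is left out, which among the members only Bnip3 and Ndrg1 in treated cells against iECDCs and Ndrg1 against pECDCs passed.

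Bnip3 encodes a mitochondrial outer membrane protein of the BCL2 family that promotes mitophagy, and lies on the minus strand of chromosome 7 (138890836 to 138909519). It measured 40.5, 42.9 and 45.8 FPKM in pECDCs, 34.2, 29.7 and 17.9 FPKM in iECDCs and 60.5, 47.5 and 65.0 FPKM after SB431542. The 3 groups did not overlap. The fall in iECDCs (log2 fold change −0.67 ± 0.192 SE, adjusted p = 0.0447 by edgeR) was largest in replicate 3, which on the CPM scale was at 0.56 of the mean of the other 2. Without that library the difference was −0.44 ± 0.0649 (adjusted p = 0.000108), and leaving out any 1 pECDC library or iECDC replicate 2 ended the call, which held under 6 of 14 alternatives. Treated cells were 2.13-fold above iECDCs (1.09 ± 0.236, adjusted p = 0.0123), a call that held under all 15 alternatives, and 1.35-fold above pECDCs (0.43 ± 0.126, adjusted p = 0.0357), a call that held under 8 of 14. Its close relative in mitophagy, Bnip3l (Nix), named here after its values were seen, also rose in treated cells, by 1.04 ± 0.178 on the log2 scale against iECDCs (adjusted p = 0.00531) and by 0.77 ± 0.143 against pECDCs (adjusted p = 0.00726).

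P4ha1 and P4ha2 encode alpha subunits of the collagen prolyl 4-hydroxylase, which stabilizes the collagen triple helix. They lie on the plus strands of chromosome 10 (59323296 to 59373304) and chromosome 11 (54100095 to 54131665). P4ha1 measured 111, 110.2 and 113 FPKM in pECDCs, 90.6, 93.0 and 74.2 FPKM in iECDCs and 76.1, 60.5 and 75.7 FPKM after SB431542. All pECDC libraries were above all others, while the lowest iECDC library lay within the treated range. It fell in iECDCs (log2 fold change −0.38 ± 0.0888 SE, adjusted p = 0.0194 by edgeR), a call lost when any 1 pECDC library was left out and when all 9 libraries were fitted together. In treated cells it was 0.64-fold the pECDC level (−0.64 ± 0.106, adjusted p = 0.00466), which held under all 14 alternatives. Treated cells and iECDCs differed by −0.27 ± 0.145 (adjusted p = 0.19), and by −0.27 ± 0.0621 without iECDC replicate 3 and SB431542 replicate 2 (adjusted p = 0.000391).

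P4ha2 measured 14.6, 14.1 and 14.3 FPKM in pECDCs, 13.7, 12.5 and 10.9 FPKM in iECDCs and 16.2, 9.11 and 15.2 FPKM after SB431542. Treated replicate 2 was the lowest of the 9 libraries and the other treated ones the highest. No comparison passed the test with all libraries. Without treated replicate 2 the difference from pECDCs turned from −0.08 to 0.14 ± 0.0465 (adjusted p = 0.0148) and that from iECDCs became 0.35 ± 0.112 (adjusted p = 0.0274). The third alpha subunit, P4ha3, was at 13.6 to 14.7 FPKM in pECDCs, at 5.47, 6.03 and 12.7 FPKM in iECDCs and at 10.8 to 17.9 FPKM after SB431542, and the shared beta subunit P4hb was at 320 FPKM or more in every library. Neither passed the test in any comparison.

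Adm encodes adrenomedullin, a vasodilator peptide that cells secrete under hypoxia, and lies on the plus strand of chromosome 7 (110627661 to 110629820). It measured 42.0, 40.9 and 43.3 FPKM in pECDCs and 26.9, 25.9 and 18.4 FPKM in iECDCs, with no overlap. The fall was 0.56-fold (log2 fold change −0.84 ± 0.127 SE, adjusted p = 0.00271 by edgeR) and passed under 13 of 14 alternatives, the exception being the fit of all 9 libraries (adjusted p = 0.239). After SB431542 it measured 70.4, 20.5 and 72.0 FPKM. Replicates 1 and 3 were above all other libraries, and replicate 2 was within the range of iECDCs, at 0.29 of the mean of the other 2 on the CPM scale. The difference from iECDCs was large beside its error but did not pass (1.20 ± 0.419, adjusted p = 0.0606), and that from pECDCs was 0.38 (adjusted p = 0.512). Without replicate 2 the values were 1.59 ± 0.148 (adjusted p = 3.73e-05) and 0.77 ± 0.0456 (adjusted p = 5.05e-11).

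The adrenomedullin receptor consists of Calcrl with Ramp2 or Ramp3. Calcrl measured 1.89 to 3.33 FPKM in pECDCs and iECDCs and 1.25, 2.23 and 1.28 FPKM after SB431542. It was lower in treated cells than in pECDCs (−0.81 ± 0.225, adjusted p = 0.0305 by edgeR), a call that held under 9 of 14 alternatives. Ramp2 was at most 0.37 FPKM and was also lower in that comparison (−1.24 ± 0.368, adjusted p = 0.0376), a call that held under 5 of 13 alternatives. Ramp3, named after its values were seen, measured 1.65, 25.8 and 1.08 FPKM in treated replicates 1, 2 and 3, against 7.59 to 18.2 FPKM in the other 6 libraries. The treated library with the least Adm had the most Ramp3 of all 9, and the 2 with the most Adm had the least. Among the untreated libraries the order was mixed. In pECDCs replicates 1, 2 and 3, Adm (42.0, 40.9 and 43.3 FPKM) and Ramp3 (13.3, 13.6 and 12.9 FPKM) ran in opposite order over a narrow range. iECDC replicates 1 and 2 had less Adm (26.9 and 25.9 FPKM) and more Ramp3 (18.2 and 16.5 FPKM) than every pECDC library. Within iECDCs, however, both genes fell from replicate 1 to replicate 3. iECDC replicate 3 had the least Adm of all 9 libraries, 18.4 FPKM, and the least Ramp3 of the 6 untreated ones, 7.59 FPKM. A link between these genes was not tested. With the spread of the treated libraries, the log2 difference of Ramp3 from iECDCs was −0.55 ± 0.974 (adjusted p = 0.686).

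Ndrg1, whose product is a cytoplasmic protein induced by hypoxia, differentiation and stress, showed the largest difference of any member that passed the test with all libraries. It lies on the minus strand of chromosome 15 (66929318 to 66969640). It measured 1.90, 1.86 and 2.27 FPKM in pECDCs, 1.67, 1.50 and 1.41 FPKM in iECDCs and 4.05, 3.96 and 4.30 FPKM after SB431542. The groups did not overlap, and treated replicate 2 was within 0.95 of the mean of the other 2 on the CPM scale. It was 2.70-fold higher than in iECDCs (log2 fold change 1.43 ± 0.128 SE, adjusted p = 0.000598 by edgeR) and 2.06-fold higher than in pECDCs (1.04 ± 0.106, adjusted p = 0.000917), and both calls held under all 15 and all 14 alternatives. The lower level in iECDCs than in pECDCs (−0.40 ± 0.121, adjusted p = 0.053) passed under 3 of 14 alternatives. Of the other NDRG family genes, Ndrg3 was higher in treated cells, by 0.56 ± 0.16 against iECDCs (adjusted p = 0.0331) and 0.55 ± 0.143 against pECDCs (adjusted p = 0.0234). Its calls held under 8 of 15 and 9 of 14 alternatives. Ndrg4 fell in iECDCs by 0.56 on the log2 scale (adjusted p = 0.0162), and Ndrg2 passed in no comparison, at 38.0, 17.6 and 36.1 FPKM in the treated libraries and 17.0 to 23.1 FPKM in the others.

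Kdm3a encodes a histone demethylase that removes methyl groups from histone H3, and lies on the minus strand of chromosome 6 (71588972 to 71632990). It measured 5.43, 5.83 and 5.47 FPKM in pECDCs, 5.08, 5.57 and 4.92 FPKM in iECDCs and 6.32, 6.29 and 7.06 FPKM after SB431542, and every treated library was above the other 6. The differences were small, 1.27-fold against iECDCs (0.35 ± 0.104, adjusted p = 0.0378 by edgeR) and 1.18-fold against pECDCs (0.24 ± 0.0781, adjusted p = 0.048). They held under 4 of 15 and 2 of 14 alternatives. Its paralog Kdm3b rose by 0.40 ± 0.109 (adjusted p = 0.0278) and 0.35 ± 0.0722 (adjusted p = 0.0109), while Jmjd1c passed in no comparison.

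Car9, on the plus strand of chromosome 4 (43506966 to 43513729), and Ankrd37, on the minus strand of chromosome 8 (45996902 to 46005707), had few reads. Car9, the carbonic anhydrase whose transcript is among the most strongly hypoxia-induced in tumours, had 17, 12 and 8 counts in pECDCs, 12, 7 and 7 in iECDCs and 14, 11 and 14 after SB431542. Ankrd37, which encodes an ankyrin repeat protein, had 37, 29 and 50 counts in pECDCs, 31, 32 and 11 in iECDCs and 14, 39 and 21 after SB431542. The groups overlapped for both genes, and no comparison passed with all libraries. Ankrd37 passed as lower in treated cells once the libraries that stand apart were left out (adjusted p = 0.0486 against iECDCs and 0.0342 against pECDCs). Car9 overlaps the antisense gene Gm12454, with at most 18 counts, and Ankrd37 overlaps Ufsp2 on the other strand, with up to 1140 counts. Whether counting used the strand is not given in the sources used here, so reads of overlapping genes cannot be told apart. Adm, Bnip3 and Ndrg1 overlap noncoding genes or a pseudogene with at most 5 counts, and the other 5 genes overlap none.

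The position of single libraries was followed over the 8 genes with a mean of at least 1 FPKM, all except Car9 and Ankrd37, on a log2 CPM scale centred on each gene's mean over the 9 libraries. iECDC replicate 3 had the lowest median position, −0.30, with a range from −1.18 for Bnip3 to 0.06 for Egln1. Within its group it was lowest for 7 of the 8 genes. Of 14210 genes that passed the count filter over all 9 libraries it was lowest in its group for 41.9%, and of 49 other hypoxia targets for 71.4%. SB431542 replicate 2 was lowest in its group for 7 of the 8 genes as well, against 43.4% of all genes and 53.1% of the other targets. Treated replicates 1 and 3 lay together, at medians of 0.33 and 0.34, and replicate 3 was the highest of all 9 libraries for 5 genes. The pECDC libraries lay close to the mean, at −0.01, 0.06 and 0.07. The spread within the iECDC and treated groups ran in one direction over most of the members, although in treated replicate 2 Kdm3a and Ndrg1 were at 0.94 and 0.95 of the mean of the other 2, and Egln3 was at 43.7 CPM beside 43.7 and 43.8 CPM.

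**Figure D3:**
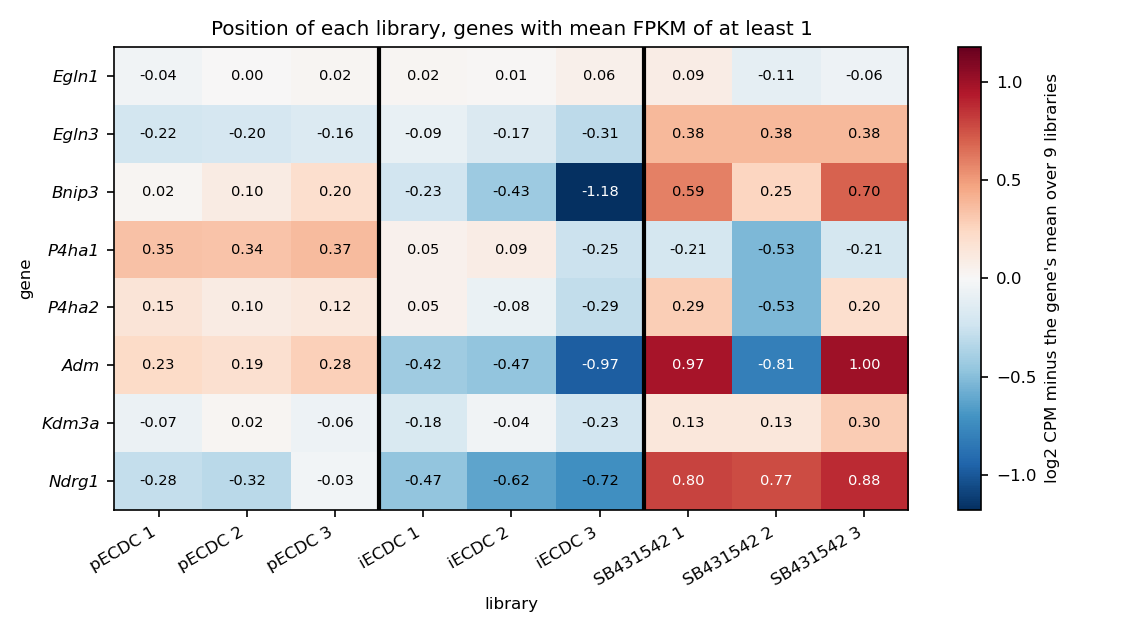
Position of each library (columns) for the 8 genes with a mean of at least 1 FPKM (rows), as log2 CPM minus the gene's mean over all 9 libraries. Blue is below and red above the mean. iECDC replicate 3 is the lowest column for Bnip3 (−1.18) and Adm (−0.97), and SB431542 replicate 2 is below the mean for P4ha1, P4ha2 and Adm but above it for Egln3 and Ndrg1.

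Genes most like the 3 members of widest range were looked up over the 9 libraries among 11383 genes, by the root mean square difference of centred log2 CPM. For Adm, with a range of 1.97, these were Adamts1 (0.148) and Klhl13 (0.166). For Bnip3, with a range of 1.87, it was Abtb1 (0.152), and for Ndrg1, with a range of 1.61, Nod1 (0.11) and Gm8066 (0.133). All points share the 9 libraries and the same depths, and the likeness is a description.

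The machinery upstream of the members was read from a list of 16 genes for HIF subunits, hydroxylases, the VHL complex, Siah ligases and coactivators, of which 15 were tested and Hif3a was too low. In iECDCs 1 rose and 0 fell by edgeR and by DESeq2. Of all 13752 genes tested by edgeR, 7.21% were higher and 9.21% lower. At an unadjusted p-value under 0.05, 2 of the list were higher and 2 lower, against 2060 and 2273 of the 13752 genes. Epas1, which encodes HIF-2α, measured 0.33, 0.40 and 0.33 FPKM in pECDCs, 0.89, 0.68 and 0.90 FPKM in iECDCs and 1.79, 1.07 and 2.16 FPKM after SB431542, with no overlap. It was 2.31-fold higher in iECDCs than in pECDCs (1.21 ± 0.187, adjusted p = 0.00298 by edgeR). Treated cells were 2.05-fold above iECDCs (1.04 ± 0.28, adjusted p = 0.0267) and 4.77-fold above pECDCs (2.25 ± 0.287, adjusted p = 0.0019). The step between iECDCs and treated cells held under 9 of 15 alternatives and the other 2 under all 13 and all 14. Hif1a, which encodes HIF-1α, was the more abundant of these alpha subunits per length in every library. It measured 36.1 to 37.0 FPKM in pECDCs, 33.5, 33.7 and 23.3 FPKM in iECDCs and 45.1, 29.7 and 46.4 FPKM after SB431542, and passed in no comparison (−0.29, 0.43 and 0.15, adjusted p of 0.152 or more). For Hif1a as for Adm, iECDC replicate 3 and treated replicate 2 were the lowest libraries of their groups. Over 14210 genes, the same libraries were lowest in their groups for 41.9% and 43.4%, and a link between Hif1a and Adm was not tested.

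In treated cells 6 of the 15 tested genes of this list were higher than in iECDCs and 1 was lower. Of all genes tested, 16.0% were higher and 14.0% lower. Against pECDCs 7 of the list were higher and 2 lower, beside 17.9% and 17.0% of all genes. Arnt2, a partner of HIF alpha subunits, rose 2.26-fold and 2.69-fold (1.18 ± 0.163, adjusted p = 0.00244, and 1.43 ± 0.14, adjusted p = 0.000804, by edgeR). Arnt rose by 0.69 ± 0.154 (adjusted p = 0.0141) and 0.47 ± 0.143 (adjusted p = 0.0392), the latter under 5 of 14 alternatives. The hydroxylase Egln2 rose 1.26-fold and 1.28-fold, from 23.2 to 25.8 FPKM in pECDCs and iECDCs to 28.5 to 30.9 FPKM. Its calls held under 9 of 15 and all 14 alternatives. Hif1an, which encodes the asparagine hydroxylase FIH, rose against pECDCs (0.31, adjusted p = 0.0189), a call that held under 8 of 14 alternatives. The coactivators Ep300 and Crebbp rose by 0.29 to 0.45 in both comparisons. Against iECDCs the calls held under 13 of 15 alternatives for Ep300 and 6 of 15 for Crebbp. Against pECDCs they held under 9 of 14 and 12 of 14. Eloc, which encodes elongin C of the VHL complex, fell by 0.73 and 0.61 (adjusted p of 0.00868 and 0.00694). Elob fell by 0.33 against pECDCs (adjusted p = 0.0261), a call that held under 9 of 14 alternatives. Vhl itself passed in none (log2 fold changes −0.07, 0.21 and 0.14).

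**Figure D4:**
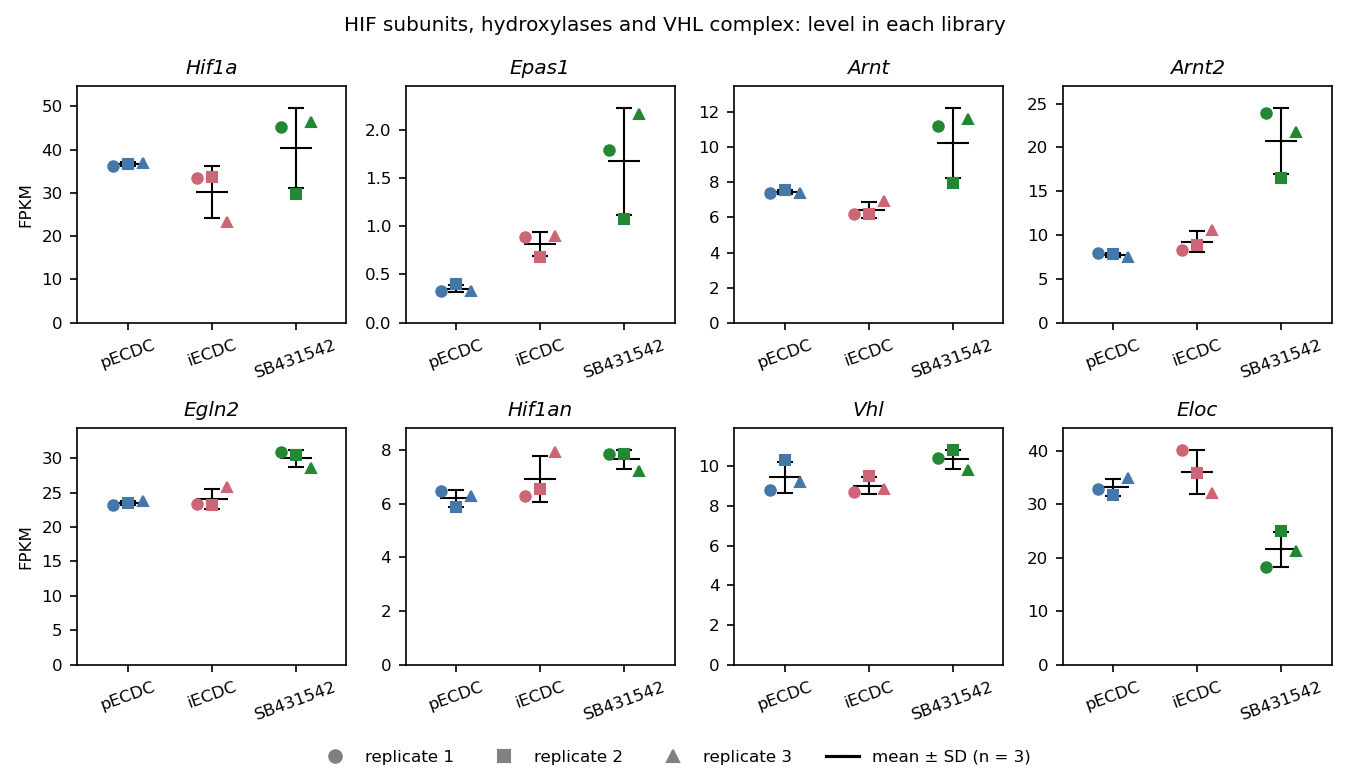
Level in FPKM (linear axes from 0) of HIF subunits (Hif1a, Epas1, Arnt, Arnt2), oxygen-sensing hydroxylases (Egln2, Hif1an) and parts of the VHL complex (Vhl, Eloc) in each library, with the mean and SD of 3 libraries. Epas1 steps up from 0.353 to 0.819 to 1.67 FPKM on average, and Eloc is lower in all 3 treated libraries.

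The other hypoxia targets, a list of 51 genes, showed no common direction. In iECDCs 6 of the 49 tested rose and 9 fell, with a median log2 fold change of −0.14. Of all genes tested, 7.21% were higher and 9.21% lower. Among the largest increases were those of Hmox1, heme oxygenase (1.03 ± 0.287, adjusted p = 0.0393), and Angptl4, an inhibitor of lipoprotein lipase (0.83 ± 0.14, adjusted p = 0.00464). Hmox1 measured 811, 797 and 320.4 FPKM in iECDC replicates 1, 2 and 3, and its call held under 5 of 14 alternatives. The largest decreases among genes of at least 1 FPKM were those of Selenbp1 (−0.81 ± 0.208, adjusted p = 0.0296), the lactate exporter Slc16a3 (−0.68 ± 0.122, adjusted p = 0.00598) and the transcriptional repressor Bhlhe40 (−0.63 ± 0.0982, adjusted p = 0.00319). These calls held under 8, 14 and 13 of 14 alternatives.

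In treated cells 16 of 48 targets rose and 6 fell against iECDCs, with a median of −0.03. Of all genes tested, 16.0% were higher and 14.0% lower there. Against pECDCs 13 rose and 10 fell, with a median of 0.01, beside 17.9% of all genes higher and 17.0% lower. Selenbp1 rose most, from 1.86 to 5.54 FPKM in the other groups to 30.2, 14.7 and 29.4 FPKM (3.10 ± 0.338, adjusted p = 0.00112 against iECDCs, and 2.30 ± 0.279, adjusted p = 0.00161 against pECDCs). Ppp1r3c, a glycogen-targeting phosphatase subunit, rose by 1.91 ± 0.343 and the nuclear receptor Rora by 1.37 ± 0.338 against iECDCs. Against pECDCs the secreted glycoprotein Stc2 rose by 1.40 ± 0.107 and the histone demethylase Kdm4b by 1.12 ± 0.131. Pdk1, a kinase that inhibits pyruvate dehydrogenase, rose by 1.06 ± 0.234 against iECDCs (adjusted p = 0.0132) and missed the threshold against pECDCs (0.60, adjusted p = 0.0502).

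Other targets fell in the same libraries. Ddit4, an inhibitor of mTORC1, fell by 1.74 on the log2 scale against iECDCs and by 2.17 against pECDCs (adjusted p = 0.000817 and 2.51e-05). Hmox1 fell by 2.17 against iECDCs and hexokinase 2 (Hk2) by 1.42 against pECDCs. Vegfa was lower than in pECDCs (−0.44 ± 0.0917, adjusted p = 0.0111). The glucose transporter Slc2a1 and lactate dehydrogenase Ldha, both classical targets, passed in no comparison with all libraries, with log2 fold changes between −0.06 and 0.10. Without iECDC replicate 3, Slc2a1 was 0.12 higher in iECDCs than in pECDCs (adjusted p = 0.0452 by edgeR), and Ldha was also higher (adjusted p = 0.0246). With iECDC replicate 3 and treated replicate 2 both left out, Slc2a1 and Ldha were lower in treated cells than in iECDCs (adjusted p = 0.00113 and 0.00366). Leaving out treated replicate 2 made Slc2a1 pass as lower in treated cells than in pECDCs (adjusted p = 0.0304).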

How the data were processed

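RNA of pECDCs, iECDCs and SB431542-treated cells had been sequenced in 3 libraries per group, and groups were taken from the labels. The submitters' processing notes name Bowtie2 2.0.6, TopHat2 2.0.9 and mm9, but the coordinates of 53499 of the 54532 genes (98.1%), the 10 members included, were those of GENCODE M21 on GRCm38. The counting program, its strand setting and its treatment of reads with several matches are not given in the sources used here. The authors deposited unnormalized read counts per gene and FPKM values. Of the FPKM values, 1 differed by over 1% from the count divided by gene length and a constant of the library. The log2 fold changes and p-values of the authors' own comparisons, and their group means, stand in that deposited table and were left out. For library preparation the labels name a TruSeq kit and the methods other kits, and the methods give 2 biological replicates, whereas 3 libraries per group were used here.

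The test on counts was that of edgeR 4.0.16 under R 4.3.3 (TMM normalization, filterByExpr with a minimum count of 10 and a minimum total count of 15, quasi-likelihood F-test, Benjamini-Hochberg adjustment over all genes tested, threshold 0.05) with only the libraries of the 2 groups compared in the fit. The paper's DESeq analysis was replaced by this test. CPM values use TMM library sizes, and log2 CPM a prior count of 2. Total counts were 19462912 to 23951392 in pECDC, 16568306 to 20204216 in iECDC and 17063137 to 20849975 in SB431542-treated libraries. Depth limits Car9 and Ankrd37 most.

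The members and the lists of regulators, partners, targets and markers were chosen with earlier results of these data known. Named beside the 10 members were the regulators and partners past the threshold, 6 core regulators, up to 3 targets with the largest increase and 3 with the largest decrease per comparison at a mean of at least 1 FPKM in the higher group, Vegfa, Slc2a1, Pdk1 and Ldha, and the nearest genes in pattern. Bnip3l, Ramp3, P4ha3, P4hb, Ndrg2 and Jmjd1c were named after their values were seen. Single results of some genes that this rule names are not reported here. One listed symbol had 2 identifiers, of which the one with more counts was used.

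Alternatives were DESeq2 1.42.0, RLE size factors, no filter, a single fit of all 9 libraries, a block for the replicate number, each library left out in turn, an absolute log2 fold change of at least 1, and limma 3.58.1 on log2(FPKM + 1) or log2(FPKM + 0.1) and with a filter on FPKM. Leaving out iECDC replicate 3 and SB431542 replicate 2 together was chosen after the data were seen. The main edgeR test and DESeq2 were checked on simulated counts, and the other alternatives were not. The simulation held no library that stands apart. Its spread between libraries was below that found in the comparisons of treated cells. Motif searches, tables and plots used python 3.11.15 with numpy 2.4.6, pandas 2.3.3 and matplotlib 3.10.9.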

Additional observations from a re-analysis of the deposited data

How the results depend on the processing

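Counts of members past the threshold depended on single libraries. Of the 10 genes, 3 passed between iECDCs and pECDCs, 4 between SB431542-treated cells and iECDCs and 5 between treated cells and pECDCs. Leaving out 1 library at a time gave 1 to 5, 3 to 6 and 3 to 8. For iECDCs against pECDCs the count was 1 without any 1 pECDC library and 5 without iECDC replicate 1, and for treated cells against pECDCs it was 8 without treated replicate 2. Without a filter on low counts it was 5 for iECDCs against pECDCs, and in the fit of all 9 libraries 0 there and 3 for treated cells against pECDCs. With an absolute log2 fold change of at least 1 it was 0, 2 and 1. With iECDC replicate 3 and treated replicate 2 both left out, an alternative chosen after seeing the data, 8 passed between treated cells and iECDCs. Of all genes tested 16.4%, 30.0% and 34.8% passed in the 3 comparisons, and 4.72% to 31.7%, 12.3% to 64.5% and 17.1% to 64.1% over the alternatives without a fold limit. The cause of these shifts was not tested. Only a limit on the fold change lowers a count by construction.

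Of the other hypoxia targets, 15, 22 and 23 passed. Leaving out 1 library gave 6 to 31, 11 to 31 and 17 to 43, the highest of each without iECDC replicate 3, without treated replicate 2 and without treated replicate 2. The fit of all 9 libraries gave 4 for iECDCs against pECDCs, and an absolute log2 fold change of at least 1 gave 2, 12 and 6. With both libraries left out 41 passed between treated cells and iECDCs. With the replicate number as a block, 3, 3 and 4 members and 15, 20 and 22 targets passed. Same-numbered libraries did not deviate together (correlations of deviations from −0.21 to 0.03), so the numbers were not taken as pairs.

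Small log2 fold changes changed sign. Leaving out 1 library gave −0.07 to 0.04 for Egln1 (treated against pECDCs), −0.05 to 0.06 for Egln3 (iECDCs against pECDCs), −0.39 to 0.09 for Car9 (iECDCs against pECDCs), −0.01 to 0.35 and −0.23 to 0.14 for P4ha2 (treated against iECDCs and pECDCs), and −0.56 to 0.01 and −0.51 to 0.17 for Ankrd37 (iECDCs against pECDCs, treated against iECDCs). It gave −0.02 to 0.05 for Egln2 (iECDCs against pECDCs), −0.10 to 0.12, −0.19 to 0.04 and −0.13 to 0.02 for Slc2a1 (iECDCs against pECDCs, treated against iECDCs and against pECDCs), −0.20 to 0.02 and −0.08 to 0.12 for Ldha (treated against iECDCs and pECDCs) and −0.30 to 0.06 for Vegfa (treated against iECDCs). Egln3 was at −0.01 without a filter (iECDCs against pECDCs), and Egln1 at 0.01 with both libraries left out (treated against iECDCs). Of these results, 2 passed the threshold with their sign changed, P4ha2 in treated cells against pECDCs without treated replicate 2 and Slc2a1 in iECDCs against pECDCs without iECDC replicate 3. Over all alternatives, 115 of 138, 125 of 148 and 114 of 138 values of members, the limit on the fold change left out, kept both direction and side of the threshold.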
